A study of Mus musculus with 6 samples.

Results

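A set of 75 genes was marked by probes that read no more than background in wild-type (WT) mouse embryonic stem cells and read clearly in cells lacking Tet1, Tet2 and Tet3 (TKO). These genes were chosen by the readout itself. A probe qualified if the scanner software did not mark it as well above background on any of the 3 WT arrays, marked it so on all 3 TKO arrays, and gave a mean level at least 4 higher in TKO. Level means the log2 processed signal with the array's own 75th percentile set to 0, and a step of 1 is a 2-fold difference. When several probes of a gene name qualified, the one with the highest mean over the 6 arrays stood for the gene. Of the 34650 gene names on the array, 75 qualified, which is 0.216%. The flags alone were met by 343 of 55681 probes (0.616%), for 310 gene names, before the step on size was applied. Because this contrast selected the genes, their differences are given as descriptions with no test.

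The series compared 3 WT dishes of the line labelled BJ FF2 ES with 3 dishes of cells derived from it and labelled as knocked out for Tet1, Tet2 and Tet3. Both groups were cultured side by side in 2i medium over inactivated mouse embryonic feeder cells, taken off the feeders, and held on matrigel until harvest. Every array carried Cy3-labelled RNA from its own single dish. The labels name no clone number, and the dishes are repeat cultures of 1 parental line and its derivative, so spreads and p-values speak only for differences between dishes.

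Tet enzymes oxidise 5-methylcytosine, the methyl mark that DNA methyltransferases place mainly on CpG dinucleotides. The oxidised bases are intermediates of DNA demethylation and are recognised poorly by the enzyme that copies methylation at replication. Embryonic stem cells hold many tissue-specific genes at very low RNA levels while they express the pluripotency network.

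The Tet probes gave the check of the genotype labels. The 3 Tet2 probes read 1.35-fold, 7.66-fold and 9.41-fold lower in TKO, the 3 Tet1 probes 2.25-fold, 2.59-fold and 2.59-fold lower, and the Tet3 probe that was well above background on all 6 arrays 1.18-fold lower. All Tet1 and Tet2 probes remained above background in TKO. The altered exons are not named in the labels, and a probe outside them checks nothing. On the whole array 51.9% to 58.5% of spots were well above background and 0 were saturated. The 3 WT arrays and TKO replicate 1 occupied the first row of 1 slide and the other TKO arrays the next row, where the spread of the negative controls was 14.1 and 15.1 intensity units, beside 7.23 to 8.95 in the first. The part of the slide row in the members' readings was not tested.

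The promoters of 37 of the 75 genes could be matched by symbol to the RefSeq table of build GRCm38.p6, which gives 250 bases before and 50 bases after each start. For each gene the first listed start was used, and these windows ran from 0 to 31 CpG dinucleotides. The windows printed here come from both ends of that range, because CpG is the dinucleotide on which Tet enzymes act. Capitals mark CpG, and each sequence runs 5′ to 3′ on the strand of the gene.
Ubd, chr17:37193642-37193941, plus strand: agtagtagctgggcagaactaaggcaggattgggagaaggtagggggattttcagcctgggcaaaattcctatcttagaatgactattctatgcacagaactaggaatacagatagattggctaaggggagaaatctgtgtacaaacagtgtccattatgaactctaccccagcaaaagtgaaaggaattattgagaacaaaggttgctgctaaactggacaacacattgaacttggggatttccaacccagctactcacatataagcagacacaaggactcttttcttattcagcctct
Gc, chr5:89457849-89458148, minus strand: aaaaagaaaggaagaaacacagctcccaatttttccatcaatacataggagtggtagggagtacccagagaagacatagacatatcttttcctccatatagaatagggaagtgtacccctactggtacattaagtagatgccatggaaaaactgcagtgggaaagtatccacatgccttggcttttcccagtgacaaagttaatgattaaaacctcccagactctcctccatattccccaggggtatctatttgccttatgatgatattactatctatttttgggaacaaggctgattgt
Trim12a, chr7:104315446-104315745, minus strand: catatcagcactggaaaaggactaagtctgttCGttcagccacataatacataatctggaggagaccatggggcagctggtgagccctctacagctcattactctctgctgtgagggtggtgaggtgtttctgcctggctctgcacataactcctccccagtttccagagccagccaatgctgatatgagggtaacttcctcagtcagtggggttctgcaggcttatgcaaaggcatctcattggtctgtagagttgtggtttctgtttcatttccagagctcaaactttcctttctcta
Oasl2, chr5:114896684-114896983, plus strand: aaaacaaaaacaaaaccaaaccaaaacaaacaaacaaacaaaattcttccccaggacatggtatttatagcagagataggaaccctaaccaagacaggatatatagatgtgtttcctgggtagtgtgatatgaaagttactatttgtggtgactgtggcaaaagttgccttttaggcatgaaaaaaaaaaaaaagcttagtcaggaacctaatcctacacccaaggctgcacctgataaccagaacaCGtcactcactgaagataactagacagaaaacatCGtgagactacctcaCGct
Fgf5, chr5:98253934-98254233, plus strand: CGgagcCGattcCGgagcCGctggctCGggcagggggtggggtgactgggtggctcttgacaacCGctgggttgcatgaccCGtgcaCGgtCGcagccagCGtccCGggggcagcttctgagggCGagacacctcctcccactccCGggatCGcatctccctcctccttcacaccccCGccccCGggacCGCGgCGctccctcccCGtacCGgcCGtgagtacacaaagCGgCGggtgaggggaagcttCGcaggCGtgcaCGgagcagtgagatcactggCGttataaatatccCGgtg
Tac1, chr6:7554811-7555110, plus strand: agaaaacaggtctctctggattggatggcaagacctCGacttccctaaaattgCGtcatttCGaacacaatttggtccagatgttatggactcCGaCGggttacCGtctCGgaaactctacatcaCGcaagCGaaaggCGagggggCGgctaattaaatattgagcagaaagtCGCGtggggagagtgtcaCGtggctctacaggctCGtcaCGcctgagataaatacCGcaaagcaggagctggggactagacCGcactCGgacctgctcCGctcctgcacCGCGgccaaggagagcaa

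The windows of Ubd and Gc held 0 CpG, that of Trim12a 1 and that of Oasl2 3, whereas those of Tac1 and Fgf5 held 22 and 29. Over the 37 matched genes the median was 8 CpG, beside 7 over the 27025 genes of the table and 13 over its 17492 protein-coding genes. Windows with 3 or fewer CpG made up 40.5% of the matched genes (15 of 37), 31.9% of all genes and 4373 of the 17492 protein-coding genes. All 15 of these CpG-poor windows belonged to the 27 matched genes for which no probe on the array was measured in WT, which had a median of 3 CpG. The other 10 matched genes, for which a further probe was measured in WT, had 8 to 25 CpG, with a median of 12.5. Most of the 27 had a single probe on the array and could not have entered the group of 10. The split therefore also sorts genes by their number of probes. It depends on the choice of the first listed start as well. In the group of 10, Prlr had further starts with 2 and 4 CpG and 1810058I24Rik a further start with 5. Mid1, counted as CpG-poor with 2, had further starts with 6 and 13. The genes with at least 15 CpG were 11 of 37 (29.7%), beside 35.2% of all genes. Among protein-coding genes they were 10 of 33 matched members (30.3%), beside 47.4% of the table. These are descriptions of the windows, and DNA methylation was not measured in these files.

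**Figure D1:**
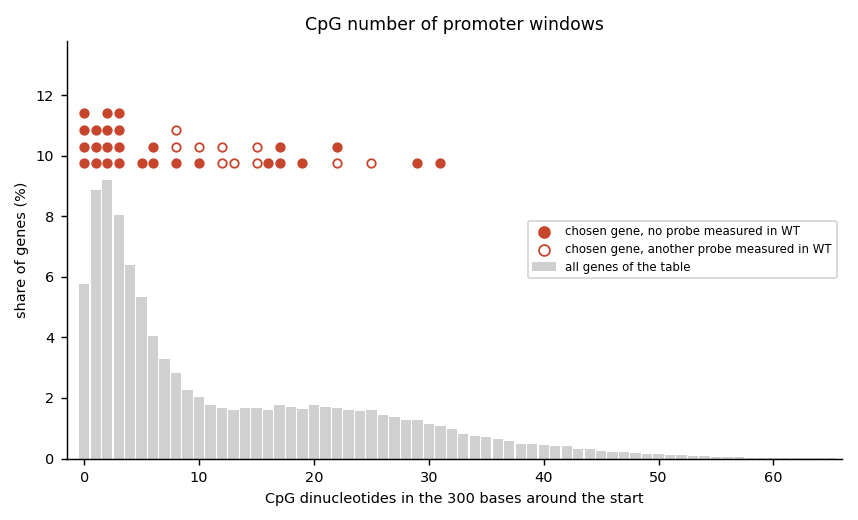
CpG number in the 300 bases around the first listed start of each gene. Grey bars give the share of 27025 RefSeq genes, filled points the 27 chosen genes with no probe measured in WT, and open points the 10 chosen genes with another probe measured in WT; the height of the points only stacks them. Filled points crowd between 0 and 3 CpG, and no open point lies below 8. Most filled points are genes with a single probe on the array, which could not have been open points.

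Motif letters were searched on both strands of the same windows. The core of the interferon-stimulated response element, GAAA, any 2 bases and GAAA, occurred in 2 of 37 windows (5.41%, beside 3.49% of all genes), those of Trim12a and Gbp2. The TATA box letters TATAAA occurred in 9 of 37 windows (24.3%, beside 14.2%), among them Afm, Serpina3c, Reg2, Crisp1, Oasl2 and Fgf5. A letter match is not a binding site.

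The name "silent in WT" held for the probes, and only for some of the genes. Of the 75 genes, 36 had a single probe on the array. Of the 39 with further probes, 25 had another probe well above background on all 3 WT arrays, 3 had one measured on 1 or 2 WT arrays, and 11 had none measured in WT. Of those 11, 5 had a second probe that was well above background on all TKO arrays, 1 on some of them, and 5 had second probes that were at background on every array. The 25 genes measured in WT by another probe are described after the rest, because transcription of those genes in WT was visible on the same arrays.

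**Figure D2:**
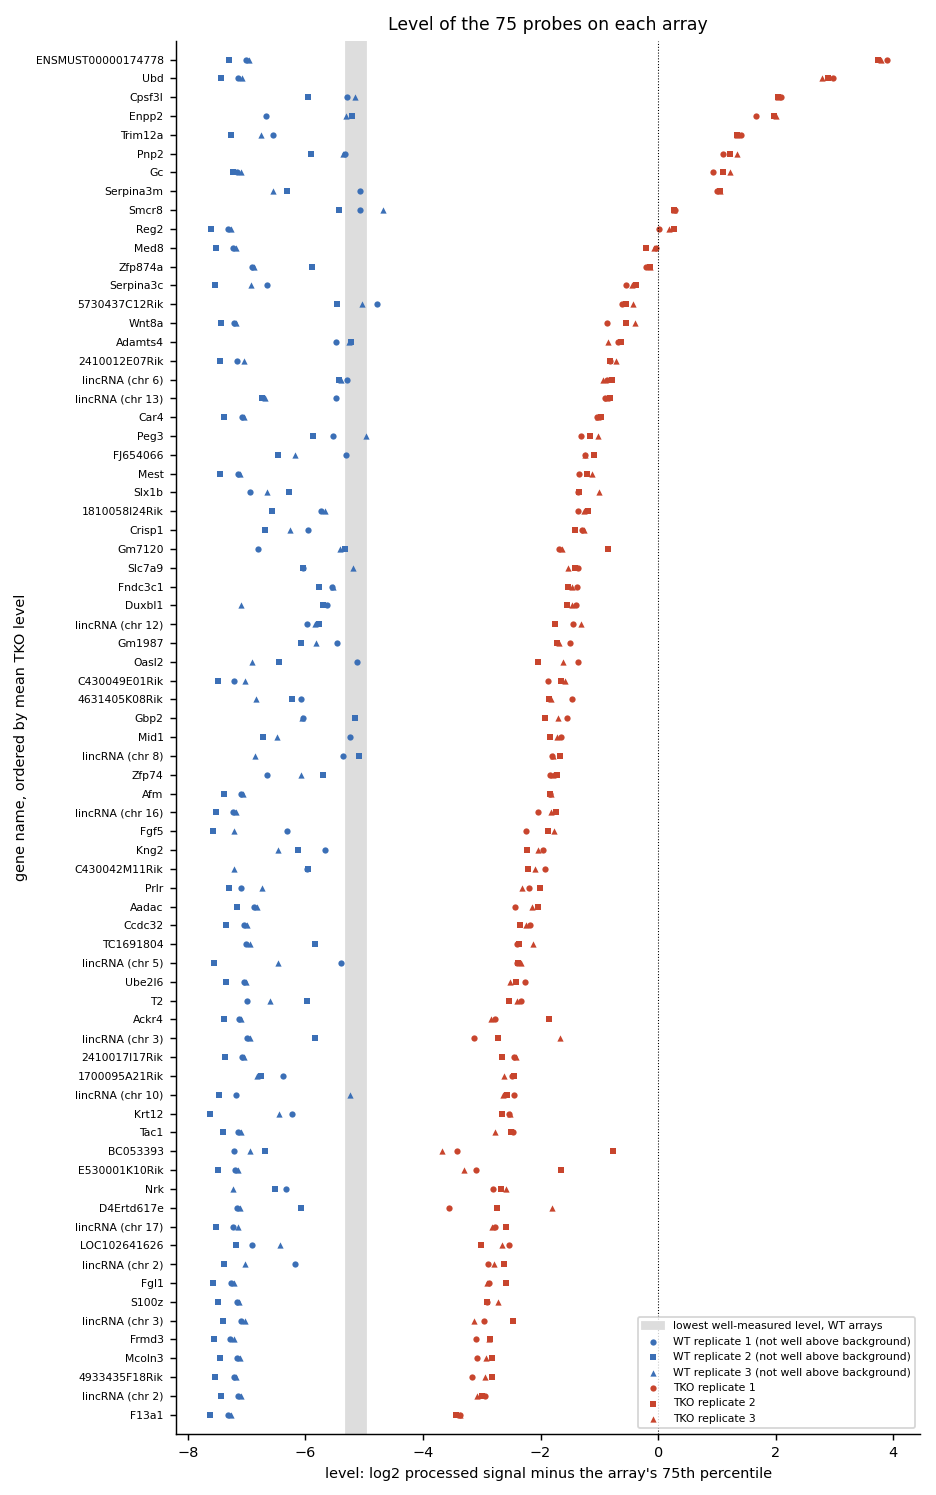
Level of the chosen probes on each array, without 2 that are not reported here (x axis: log2 processed signal minus the 75th percentile of the array; y axis: gene names in order of mean TKO level, long intergenic RNAs by chromosome). Blue points are the WT dishes, none of them well above background, red points the TKO dishes, and the grey band spans the lowest well-measured level of the WT arrays; no red point overlaps a blue point of its row.

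WT levels of the 75 probes lay between -7.63 and -4.68, near or below the lowest levels that counted as well above background on those arrays (-5.03, -5.31 and -4.97). Means in TKO ran from -3.40 to 3.80, with a median of -1.73, and 10 probes exceeded the 75th percentile on every TKO array. The WT readings are background, so each fold is a lower bound, set against the lowest well-measured level of each WT array or the reading of the probe itself, whichever was higher. The bounds ran from at least 3.26-fold for F13a1 to at least 478-fold, with a median of 10.3. A bound of 20-fold or more was reached by 16 genes, of 10-fold or more by 38, of 4-fold to under 10-fold by 36, and under 4-fold by 1. In whole dishes, a few cells with much RNA and many cells with little cannot be told apart.

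The 2 highest bounds belonged to Ubd and to a transcript of the H2 region. Ubd encodes FAT10, a ubiquitin-like protein that marks others for the proteasome and is induced by interferon gamma. Its probe (mm9, chr17:37332688-37332747, plus strand) read 2.97, 2.89 and 2.78 in the TKO dishes and -7.14, -7.43 and -7.08 in WT. The TKO readings spread by 0.19 and lay far above all WT readings, and TKO was at least 253-fold higher. The transcript ENSMUST00000174778, listed as a predicted gene, lies about 1 Mb away among the H2 class I genes (mm9, chr17:36278728-36278787, minus strand). It read 3.88, 3.73 and 3.78 in TKO against -7.01, -7.30 and -6.96 in WT, at least 478-fold higher, with no overlap. H2 class I genes present peptides to T cells and are near-identical copies of one another, so its signal may include other members of that family.

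Trim12a, a tripartite-motif gene of a cluster related to the retroviral restriction factor TRIM5, read 1.40, 1.34 and 1.34 in TKO and -6.56, -7.26 and -6.75 in WT. The TKO dishes were almost equal, and the bound was at least 88.3-fold. A second Trim12a probe, 4260 bases upstream, was also at background on all WT arrays and read -2.11, -2.13 and -2.03 in TKO, so 2 probes of the gene met the rule. Oasl2, an interferon-induced relative of the oligoadenylate synthetases, read -1.36, -2.05 and -1.61 in TKO against -5.13, -6.46 and -6.90 in WT. Its TKO dishes spread by 0.68, yet the lowest of them stood well above the highest WT reading, with a bound of at least 10.7-fold. Gbp2, an interferon-induced GTPase, read -1.55, -1.93 and -1.71 in TKO and -6.05, -5.15 and -6.06 in WT, without overlap and at least 9.99-fold higher.

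Genes of the interferon response moved both ways. Of 16 tested genes of the list of interferon-induced, ubiquitin-like and immunoproteasome genes, leaving out the members Ubd, Oasl2 and Gbp2, 6 were called higher in TKO (37.5%) and 7 lower (43.8%) by limma at an adjusted p under 0.05, beside 29.7% called higher and 29.9% called lower (59.7% either way) over all 21572 tested genes. These 16 had a median difference of -0.11 (log2), beside -0.01 over all tested genes. Psmb8, an immunoproteasome subunit, rose by 2.38 ± 0.18 (log2, SE; limma adjusted p = 1.49e-04), although it was above background on only 1 WT array. Ifitm3, a membrane protein that limits virus entry, rose by 1.33 ± 0.04, and Irf1, an interferon-induced transcription factor, by 1.31 ± 0.04. Xaf1, an interferon-induced partner of apoptosis inhibitors, fell by 7.07 ± 0.14 (log2, SE), and Psmb9, the immunoproteasome subunit encoded next to Psmb8, fell by 0.87 ± 0.05. Ifit2, among the 7 called lower, was well above background on all 3 WT arrays and on no TKO array. It passed the filter through WT alone, so its call is not read as a test, and it was at least 1.14-fold higher in WT. Ifit1, Ifit3, Ifi44, Irf7, Rsad2 and Usp18, standard markers of an interferon response, were well above background on no array.

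Of 7 other tested genes of the Trim list, all on chromosome 7, 6 were called higher (85.7%) and 1 lower (14.3%), beside 29.7% and 29.9% of all tested genes, with a median of 1.15 (log2). Within 100 kb of the Trim12a probe, 4 of 6 tested neighbours were called higher and 1 lower. Those 4 were Trim34a, Trim12c, Trim34b and Trim6, which the count of the list already holds. Trim34a rose by 3.04 ± 0.04 and Trim12c by 1.76 ± 0.17, Trim21, an intracellular antibody receptor, rose by 1.18 ± 0.08, and Trim68 fell by 1.10 ± 0.15. Probes of Trim30a, Trim30b, Trim30c and Trim30d were at background on every array. Copies in this cluster resemble each other, and whether a probe also reads a neighbouring copy was not tested.

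Proteins that are known mainly from blood plasma or secretions formed the next group. Gc, the vitamin D-binding protein, read 0.94, 1.11 and 1.22 in TKO against -7.15, -7.23 and -7.10 in WT. All 3 TKO dishes were high and the bound was at least 73.0-fold. The probe lies at mm9 chr5:89846592-89846651, and a second Gc probe 17437 bases further upstream in the gene was at background on all 6 arrays, so the 2 probes of Gc disagreed. Afm, afamin, a vitamin E-binding protein of the same family 1135898 bases away, read -1.83, -1.83 and -1.82 in TKO and -7.10, -7.38 and -7.06 in WT, at least 9.67-fold higher and with the closest agreement between TKO dishes. Alb and Afp, the remaining genes of the albumin family, were at background on every array. Of the other genes that liver and visceral endoderm express strongly, Apoa1, Apob, Fgb and Ttr were also at background on every array. The apolipoproteins Apoa2 and Apoc2 rose by 2.14 ± 0.07 and 2.75 ± 0.14, and the endocytic receptor Lrp2 by 3.36 ± 0.09. Rbp4, the retinol-binding protein of plasma, fell by 1.38 ± 0.04. Apoa2, Apoc2, Lrp2 and Rbp4 are from a list of 15 tested endoderm and liver markers, which moved both ways. In it 7 were called higher (46.7%) and 6 lower (40%), beside 29.7% and 29.9% of all tested genes, with a median of 0.08.

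Of the serpins, inhibitors of serine proteases, Serpina3m read 1.00, 1.06 and 1.05 in TKO against -5.07, -6.31 and -6.55 in WT, at least 70.5-fold higher. Serpina3c, whose probe lies 246758 bases away, read -0.55, -0.38 and -0.45 in TKO and -6.65, -7.54 and -6.92 in WT, at least 24.9-fold higher. Both had tight TKO readings clear of WT. Of 9 other tested genes of the clade A cluster, 3 were called higher (33.3%) and 2 lower (22.2%), beside 29.7% and 29.9% of all tested genes, with a median of 0.06. Serpina1f rose by 1.40 ± 0.06 and Serpina3i fell by 1.20 ± 0.07. The smaller calls were less firm: Serpina3f was called higher by 0.39 ± 0.05, Serpina1e by 0.22 ± 0.07 and Serpina11 lower by 0.15 ± 0.05, and Serpina1e lost its call in 11 of 14 other settings, Serpina11 in 8 and Serpina3f in 2. Serpina3k, Serpina3n and Serpina6, which liver secretes, were at background throughout.

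Reg2, a secreted C-type lectin of the pancreas, read 0.02, 0.26 and 0.18 in TKO and -7.32, -7.61 and -7.26 in WT, at least 38.2-fold higher with no overlap. Its relative Reg3d, 32091 bases away, rose by 1.05 ± 0.08, and the other 5 genes of the Reg family were at background on all arrays. Kng2, a kininogen from which bradykinin is cut, read -1.95, -2.23 and -2.04 in TKO against -5.67, -6.13 and -6.47 in WT, at least 8.15-fold higher. Crisp1, a cysteine-rich protein secreted in the epididymis, read -1.30, -1.41 and -1.27 in TKO and -5.95, -6.69 and -6.26 in WT, at least 13.7-fold higher. F13a1, the catalytic subunit of coagulation factor XIII, had the lowest bound, with TKO readings of -3.38, -3.45 and -3.37 that were close together but low, and its other probe was at background on every array.

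Enzymes formed a small group. Enpp2 encodes autotaxin, the secreted phospholipase that makes lysophosphatidic acid. It read 1.66, 1.97 and 2.00 in TKO and -6.67, -5.20 and -5.30 in WT, at least 123-fold higher, with every TKO dish far above every WT dish. Of 13 other tested genes of lysophosphatidate signalling and the Enpp family, 7 were called higher (53.8%) and 3 lower (23.1%), beside 29.7% and 29.9% of all tested genes, with a median of 0.59. Enpp3, a family member that cleaves nucleotides, rose by 3.21 ± 0.06, and the receptors Lpar4 and Lpar6 rose by 1.62 ± 0.10 and 1.16 ± 0.08. The receptor Lpar5 fell by 0.75 ± 0.07, Liph, a phospholipase that also yields lysophosphatidic acid, by 0.54 ± 0.07, and Ppap2c, a lipid phosphatase that can degrade it, by 0.84 ± 0.05.

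Pnp2, a purine-nucleoside phosphorylase, read 1.10, 1.23 and 1.34 in TKO and -5.32, -5.90 and -5.36 in WT, at least 80.1-fold higher, and the groups lay far apart. Its close copy Pnp, 13021 bases away, was well measured in both groups (4.27 in WT and 4.52 in TKO) and rose by only 0.25 ± 0.05, a call that was lost when arrays were centred on the median. Of 10 other tested purine salvage genes, 4 were called higher and 5 lower, beside 29.7% and 29.9% of all tested genes. Nt5e, the surface enzyme that makes adenosine, rose by 1.49 ± 0.15, and Gda, guanine deaminase, by 1.09 ± 0.23. Ampd3, an AMP deaminase, fell by 2.38 ± 0.19 and was well above background on only 1 TKO array, while Ada, adenosine deaminase, fell by 0.57 ± 0.04 and Aprt, adenine phosphoribosyltransferase, by 0.54 ± 0.04. Aadac, an esterase of liver and gut, had a bound of at least 7.42-fold.

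Signalling genes included 2 secreted ligands of the early embryo. Wnt8a, a Wnt ligand of the epiblast and primitive streak, read -0.87, -0.55 and -0.40 in TKO and -7.21, -7.44 and -7.18 in WT, at least 22.6-fold higher. Fgf5, the growth factor that marks epiblast cells leaving the naive state, read -2.24, -1.87 and -1.78 in TKO against -6.31, -7.56 and -7.22 in WT, at least 8.80-fold higher. For both ligands TKO replicate 1 was the lowest TKO dish, and no TKO dish came near a WT dish. Of 15 other tested genes of the formative and primed epiblast list, 10 were called higher (66.7%) and 4 lower (26.7%), beside 29.7% and 29.9% of all tested genes, with a median of 1.20. The transcription factors Zic2 (3.02 ± 0.09), Grhl2 (2.30 ± 0.06) and Lef1 (2.06 ± 0.11) rose, whereas the epiblast factor Otx2 fell by 1.39 ± 0.11, the Wnt antagonist Sfrp2 by 0.98 ± 0.05 and the streak factor Eomes by 0.75 ± 0.04.

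The remaining signalling genes had lower bounds. Ackr4, a chemokine receptor that removes its ligands without signalling, read -2.77, -1.85 and -2.85 in TKO, with TKO replicate 2 high, and at least 6.11-fold above WT. Tac1, the precursor of the neuropeptide substance P, read -2.46, -2.51 and -2.78, at least 5.73-fold higher. Prlr, the prolactin receptor, had a bound of at least 7.61-fold for this probe, and Nrk, an X-linked kinase known from placenta, one of at least 5.32-fold.

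Transporters, membrane and cytoskeletal proteins known mainly from differentiated tissues were also among the members. Slc7a9, a cystine transporter subunit of kidney, had a bound of at least 12.7-fold. Fndc3c1, an X-linked protein with fibronectin type III domains, had a bound of at least 12.5-fold, Krt12, the keratin of the cornea, at least 5.76-fold, Frmd3, a FERM-domain protein, at least 4.47-fold, and S100z, a calcium-binding protein, at least 4.77-fold. Second probes of Krt12 and Frmd3 were at background on all 6 arrays, so those genes were read by 1 probe only.

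Mid1, an E3 ubiquitin ligase on microtubules, was covered by 4 probes. The chosen one read -1.65, -1.84 and -1.72 in TKO with a bound of at least 10.3-fold, a probe 98 bases away read -2.17, -2.45 and -2.23 and also met the rule, and another 4439 bases upstream read -2.72, -2.45 and -2.81. The last, 24297 bases upstream, was well above background on only 1 TKO array. A further member, listed as a partial Mid1 protein sequence and not placed on a chromosome, read -2.40, -2.36 and -2.13 in TKO, at least 6.98-fold above WT.

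Among factors that act on DNA, Duxbl1, a double-homeobox gene with near-identical copies, read -1.39, -1.55 and -1.46 in TKO and -5.63, -5.69 and -7.10 in WT, at least 12.4-fold higher. T2, listed as brachyury 2, had a bound of at least 6.40-fold. Zfp874a, a KRAB zinc finger gene, read -0.20, -0.14 and -0.13 in TKO and -6.91, -5.88 and -6.87 in WT, at least 30.8-fold higher, with the TKO dishes nearly equal. Another Zfp874a probe, 16272 bases downstream, was measured in every dish and moved from a mean of -3.91 to -3.06. Of 16 other tested genes of the zinc finger list that lie on chromosome 13, as Zfp874a does, 4 were called higher (25%) and 5 lower (31.2%), beside 29.7% and 29.9% of all tested genes. Zfp456 and Zfp85 rose by 1.40 ± 0.06 and 1.37 ± 0.05, Zfp819, a listed gene on chromosome 7, rose by 0.88 ± 0.05, and Rsl1, Zfp459 and Zfp87 fell by 0.96 ± 0.04, 0.62 ± 0.03 and 0.27 ± 0.04.

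**Figure D3:**
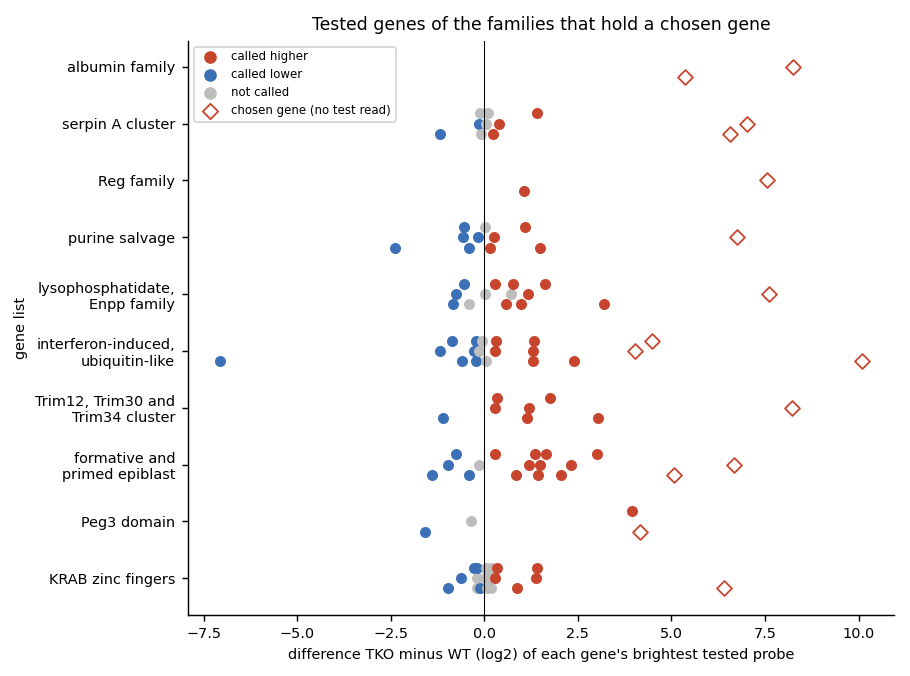
Difference between TKO and WT (x axis, log2) of every tested gene in the families and pathways that hold a chosen gene (y axis), each by its brightest tested probe. Red, blue and grey circles were called higher, called lower or not called by limma, and diamonds are the chosen genes, whose difference is not read as a test; diamonds lie to the right of nearly all their relatives, with Usp29 close to Peg3 and Xaf1 alone near -7.

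The imprinted genes Peg3 and Mest, both expressed from the paternal copy in most tissues, qualified through 1 probe each, and each was also measured in WT by another probe. The qualifying Peg3 probe read -1.31, -1.16 and -1.02 in TKO and -5.53, -5.87 and -4.98 in WT, at least 15.3-fold higher. The other Peg3 probe, 2633 bases downstream on the gene, gave -3.69, -3.09 and -3.32 for the WT dishes and 0.66, 0.89 and 0.81 in TKO. Mest read -1.34, -1.21 and -1.12 in TKO at its qualifying probe, at least 14.7-fold above WT, and its brightest other probe went from -1.95, -1.95 and -1.94 in WT to 3.38, 3.51 and 3.50 in TKO. For both genes the WT dishes held measurable RNA and every probe was higher in TKO. Of 3 other tested genes of the Peg3 domain, Zfp264 was called lower (by 1.58 ± 0.07). Usp29 was called higher, but it passed the filter through TKO alone, so its call is not read as a test. Usp29, which shares the Peg3 promoter region, read -1.65, -1.62 and -1.77 in TKO, at least 10.7-fold above a WT background, and missed the rule by 0.05.

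In 25 genes a probe at background in WT stood beside another probe that was well above background on all 3 WT arrays. The brightest other probe differed by a median of 0.45 between TKO and WT, with a range from -0.92 to 5.41. It lay within 1 of 0 in 17 of the 25 genes and was at least 1 higher in the other 8, and in 0 genes was it at least 1 lower. For these 25 the rule was met by one stretch of the gene, and another stretch was measured in WT. The qualifying probe lay downstream of the brightest other probe in 13 genes and upstream in 11, and 1 gene had no position to compare.

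The housekeeping genes showed this most plainly. Cpsf3l, the catalytic subunit of the Integrator complex, read 2.08, 2.04 and 2.04 in TKO and -5.30, -5.95 and -5.16 in WT at its qualifying probe, at least 143-fold higher. Its other probe, 418 bases upstream, gave 3.83, 3.90 and 3.89 for the WT dishes and 3.61, 3.56 and 3.56 in TKO, slightly lower in all TKO dishes. Med8, a subunit of the Mediator complex, read -0.04, -0.20 and -0.07 in TKO and -7.23, -7.52 and -7.18 in WT, at least 32.0-fold higher, while its other probe gave 5.16, 5.12 and 5.21 for the WT dishes and 4.85, 4.91 and 4.84 in TKO. Smcr8, a regulator of autophagy, had a bound of at least 38.8-fold at one probe, and means of 1.74 in WT and 1.79 in TKO at another. In all 3 genes the second probe saw nearly the same RNA level in both genotypes, and RNA of the gene was measured in WT.

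Car4, a membrane-anchored carbonic anhydrase, had a bound of at least 17.0-fold at one probe (-1.04, -0.97 and -1.03 in TKO) and went from 2.05 to 2.35 in the mean at another. Ccdc32, a coiled-coil protein, had a bound of at least 7.17-fold and went from 1.26 to 0.80. Adamts4, an aggrecan-cleaving protease, had a bound of at least 20.4-fold and went from -0.83 to -1.74 at its other probe, which is the opposite direction. Slx1b, a nuclease subunit that resolves branched DNA, had a bound of at least 14.5-fold and went from -0.06 to 0.79, and Zfp74, a zinc finger gene, at least 9.97-fold and from -0.13 to 0.20. Prlr went from -3.06 to -2.82 and Mcoln3, an endolysosomal channel with a bound of at least 4.47-fold, from -4.36 to -3.91. In 2 further genes both probes were clearly higher in TKO: Ube2l6, the conjugating enzyme of the interferon-induced modifier ISG15, had a bound of at least 6.51-fold and went from 0.67 to 2.83, and Fgl1, a liver-secreted fibrinogen relative, had a bound of at least 4.96-fold and went from -3.37 to -0.07.

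**Figure D4:**
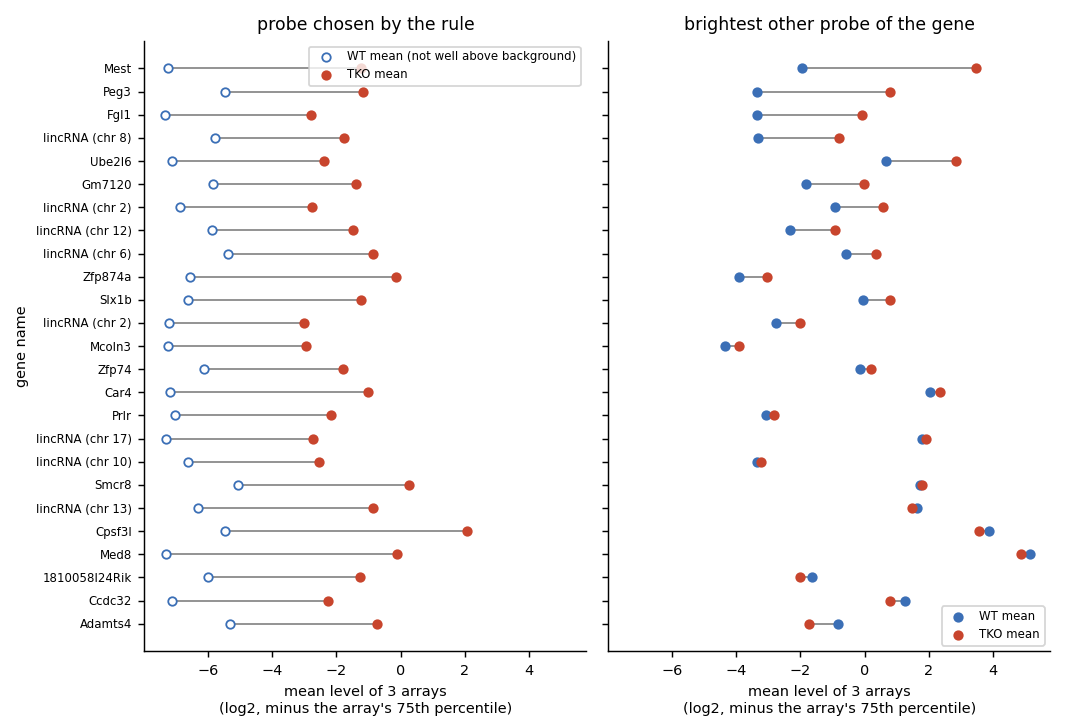
Mean levels over 3 WT and 3 TKO arrays (x axis, log2 minus the 75th percentile of the array) for the 25 genes (y axis) with a further probe measured in WT. The left panel shows the qualifying probe, whose open WT points are background, and the right panel the brightest other probe of the same gene; the long lines of the left panel shrink to under 1 in 17 genes on the right, with Mest, Peg3 and Fgl1 as the longest that remain.

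Members without a standard symbol numbered 30. They were 12 long intergenic RNA probes, 15 clones or predicted genes and 3 sequences named by accession. Their bounds ran from at least 4.27-fold to at least 478-fold. Besides ENSMUST00000174778, the clone 5730437C12Rik (at least 22.5-fold), the long non-coding RNA 2410012E07Rik (at least 19.9-fold) and the accession FJ654066, listed as an endogenous retrovirus U3 region (at least 15.02-fold), were among the higher of this group, as were the long intergenic RNAs of chromosomes 6 and 13 (at least 18.9-fold and 18.8-fold). FJ654066 read -1.24, -1.09 and -1.25 in TKO and -5.31, -6.47 and -6.17 in WT, without overlap, and a probe for a repeat family may read many copies.

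Several members sat side by side and were not independent. The 75 genes fell into 70 loci when members within 100 kb were joined, and 4 loci held 9 of them. On chromosome 17, ENSMUST00000174778, 2410017I17Rik (at least 6.03-fold) and the H2 class I-like gene LOC102641626 (at least 5.17-fold) lay within the H2 region. On chromosome 6 the probe of 1810058I24Rik (at least 14.2-fold) overlapped that of a long intergenic RNA (at least 18.9-fold), 24 bases apart on the same strand. On chromosome 3 a pair of long intergenic RNAs lay together (at least 6.03-fold and 4.76-fold). On chromosome 2 the probe of E530001K10Rik and that of a long intergenic RNA were the same sequence, so the 75 names rest on 74 distinct probes.

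The identical pair showed how far 2 spots of 1 sequence can differ. In TKO the first spot read -3.09, -1.65 and -3.30 and the second -2.94, -3.003 and -3.08. The spots were close in TKO replicates 1 and 3 and differed by over 1 in TKO replicate 2, where only the first was high. All 75 members were read by a single spot per array.

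The TKO dishes otherwise resembled each other. The range over the 3 TKO dishes had a median of 0.223 for the members, beside 0.149 for all tested genes and 0.151 for probes in the same span of levels. It was under 0.5 for 67 members, between 0.5 and 1 for 4 and over 1 for 4 (5.33%, beside 1.58% of probes in the same span of levels). Those 4 were BC053393 (-3.41, -0.78 and -3.68), D4Ertd617e (-3.56, -2.75 and -1.81), E530001K10Rik, and the long intergenic RNA at chr3:93150619-93184368 (-3.14, -2.72 and -1.67). The dish that stood highest was TKO replicate 2 for BC053393 and E530001K10Rik and TKO replicate 3 for the other two. TKO replicate 1 was the lowest of the 3 for 34 members, replicate 2 for 23 and replicate 3 for 18.

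Just inside the size step of 4 were Kng2 at 4.02, Nrk at 4.00 and F13a1 at 4.00. Just outside it were Hdhd1a at 3.97, a phosphatase gene with a bound of at least 6.23-fold, a long intergenic RNA on chromosome 3 at 3.95, and Usp29 at 3.95 with a bound of at least 10.7-fold. The bound of Usp29 exceeds that of each of the 3 inside. The choice of members depended on the processing: normexp background correction left 4 of the 75, and the rule without TKO replicate 1 was met by 114 genes.

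The members were spread over the genome. Chromosomes 4 and 17 held 8 each (10.7% of members, beside 6.38% and 5.30% of tested genes), and chromosome 19 held 0. Chromosome 11, where 57.5% of tested genes were called higher (median 0.34), held 4 members, and chromosome 8, where 49.6% were called lower (median -0.22), held 3.

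Genes next to the members also leaned towards TKO. Within 100 kb of a member probe lay 281 tested genes that were not members, near 60 of the members. Of these neighbours 129 (45.9%) were called higher and 63 (22.4%) lower by limma at an adjusted p under 0.05, beside 29.5% and 30.0% of all tested genes that were not members. Their median difference was 0.16, beside -0.01. At least 2-fold higher were 51 (18.1%), beside 7.39% of all tested genes, and at least 2-fold lower were 8 (2.85%), beside 6.27%. Of the neighbours, 7 were well above background on no WT array and on all TKO arrays, H2-T3 among them, and passed the filter through TKO alone. Among genes well above background on all 6 arrays, 46.7% of 255 neighbours were called higher, beside 32.4% of non-members. Neighbours of 1 locus are not independent of each other, and no test was made of these shares.

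The lean held in the same direction for neighbours with a gene symbol, of which 86 of 174 (49.4%) were called higher beside 33.5% of non-members with a symbol. Without chromosomes 8, 10 and 11 it was 110 of 235 (46.8%), beside 27.6%. It was 48.6% within 50 kb and 35.9% within 500 kb, so the share fell towards that of all genes in the wider window.

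Named neighbours showed which families this covered. Near Duxbl1, all 7 tested neighbours were called higher, beside 29.5% of all tested non-members. Among them were Cphx1, a homeobox gene of the early embryo (4.01 ± 0.10, from a mean of -3.82 to 0.18), and Tmem254a, a membrane protein gene (2.75 ± 0.04). Kng1, the kininogen gene next to Kng2, rose by 3.96 ± 0.15, and Crisp3 beside Crisp1 by 3.89 ± 0.06. H2-T3, which encodes the thymus leukaemia antigen, lay 938 bases from the LOC102641626 probe and was itself at background in WT, with a bound of at least 6.20-fold. Whether a probe in these loci also reads a neighbouring relative was not tested.

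Other neighbours fell while the member beside them was higher. Rnase12, near Pnp2, fell by 2.12 ± 0.35 and was above background on only 1 TKO array. Fetub, a plasma protease inhibitor near Kng2, fell by 1.35 ± 0.04, Klhdc9, near Adamts4, by 0.79 ± 0.09, and Hyi, an isomerase gene near Med8, by 0.68 ± 0.03. Of the 3 tested neighbours of Kng2, 2 rose and 1 fell, and of the 5 of Med8, 1 rose and 3 fell.

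**Figure D5:**
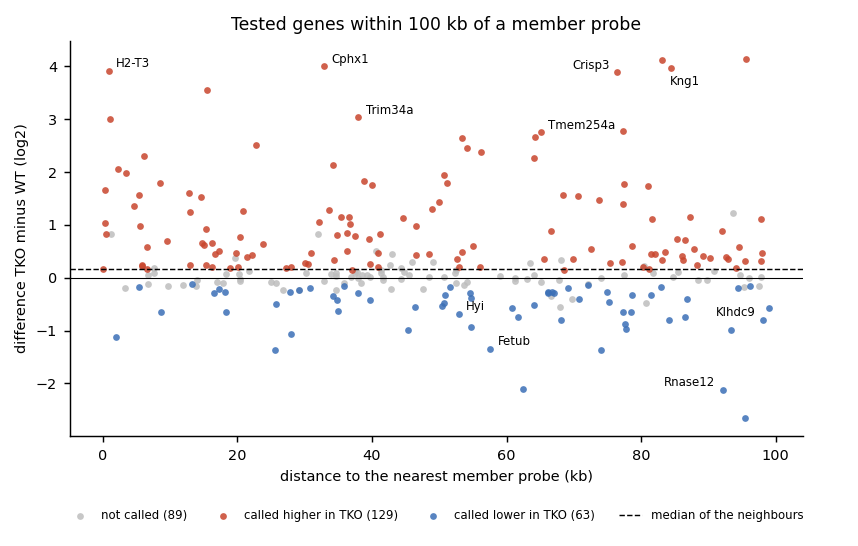
Difference between TKO and WT (y axis, log2) of the 281 tested genes within 100 kb of a member probe, by distance (x axis, kb). Red, blue and grey points were called higher, called lower or not called by limma, and the dashed line is their median of 0.16; points above 1 outnumber points below -1, and Cphx1, Kng1, H2-T3 and Crisp3 are among the highest.

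Markers of other cell types were read on the same arrays. No member belonged to the lists of germ cell, pluripotency, fibroblast, endoderm, trophoblast, neural, blood and endothelial, 2-cell-like, X-linked germline-type or DNA methylation genes. The lists are selections of markers, made with earlier results of these data known, so this absence shows only which genes were listed. Members known from such tissues were not in them, among them Fgl1 and Aadac of liver, Nrk of placenta and the neuropeptide precursor Tac1. Over all tested genes, 29.7% were called higher and 29.9% lower. Of 16 tested fibroblast markers, which residual feeder cells would carry, 12 were called higher (75%) and 1 lower (6.25%). At least 2-fold, 1 was higher and 1 lower (6.25% each, beside 7.39% and 6.27% of all tested genes). The linear signal relative to the 75th percentile was summed over the 18 fibroblast genes on the array. This sum was 31.8 to 32.5 in WT and 46.5 to 49.2 in TKO, with Lum at background throughout. Of 15 tested endoderm and liver markers 7 were called higher (46.7%) and 6 lower (40%). The signal summed over the 24 genes of this list on the array was 13.7 to 14.2 in WT and 21.1 to 22.7 in TKO. In this list 9 genes, among them Afp, Alb, Apoa1, Apob, Cer1, Cyp26a1, Fgb and Ttr, were at background on every array. Of 9 tested blood and endothelial markers 5 were called higher (55.6%) and 2 lower (22.2%), and Cdh5, Hbb-b1, Lyz2, Ptprc, Spi1 and Tie1 were at background throughout. Of 10 tested trophoblast markers 7 were called higher (70%) and 2 lower (20%). Of 14 neural markers the counts were 6 (42.9%) and 4 (28.6%), and of 27 germ cell genes 8 (29.6%) and 14 (51.9%). For 13 genes of the 2-cell-like state they were 5 (38.5%) and 3 (23.1%), and for 17 X-linked germline-type genes 4 (23.5%) and 9 (52.9%). For 16 DNA methylation genes they were 7 (43.8%) and 5 (31.2%), and for 20 pluripotency markers 4 (20%) and 13 (65%). Slc25a31, Tdrd9, Magea8 and Xlr5a, counted as lower, were well above background on no TKO array. They passed the filter through WT alone, so their calls are not read as tests. The part that other cell types play in the members' signal was not tested.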

How the data were processed

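Total RNA of 3 WT and 3 TKO dishes was hybridised to one-colour Agilent arrays and read with Feature Extraction 11.5.1.1 (submitters' processing notes). According to the headers, processed signals are linear intensity values, background-subtracted and detrended within each array, and well-above-background, saturation and outlier marks are flags of 0 or 1, per the file headers; both kinds of value are used as deposited. The deposited value table matched log2 processed signal with each column's 75th percentile at 0, from the values; its scale is not stated in the sources used here. Control and outlier spots were left out, and log2 signals were centred on each array's 75th percentile. limma 3.58.1 (R 4.3.3, lmFit, eBayes, Benjamini-Hochberg, two-sided) tested 21572 gene names by their brightest probe, kept if well above background on at least 3 of 6 arrays. On simulated data with 200 changed genes, 79% of 2-fold and 94% of 4-fold changes were called, and 8.95% of the calls were false. In the simulation 200 of 21572 genes changed, whereas 59.7% were called in the data, so these rates may not hold for the calls here. Probe positions are mm9, per the file headers; promoters are RefSeq GRCm38.p6, and the builds were not mixed. No genome of the files' build was used here, so probes were not searched for further targets, and exons and UTRs are not assigned.

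The members and gene lists were chosen with earlier results of these data known. Named genes were the 25 members with a standard symbol and the highest TKO level, and members in a list or within 100 kb of another. The 3 on each side of the size step were named too, as were up to 3 genes each way per list with a member. So were the 6 neighbours furthest each way. The other reported members with a standard symbol are also named. Of the members without one, some are named and the rest are only counted. Also named were the Tet genes, the endoderm list genes Apoa2, Apoc2, Lrp2 and Rbp4, and list genes at background. Alternatives were other background correction, scaling, centring, filters, probe rules, windows and left-out arrays. The replicate numbers of the labels name dishes only. Results for a few genes are not reported here.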

Additional observations from a re-analysis of the deposited data

How the results depend on the processing

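The 75 members became 4 under normexp background correction, whose offset of 50 narrows differences at low signal, 58 under quantile normalization, 60 when centred on the median and 72 in the deposited table. A size step of 3 gave 167 and of 5 gave 25, flags met on at most 1 WT and at least 2 TKO arrays gave 86, and requiring the brightest probe of the gene itself to qualify (chosen after seeing the data) gave 48. Leaving out 1 array gave 78 to 114 members, the highest without TKO replicate 1, which shared 72 with the 75. The bounds fell under normexp, for Ubd from 253-fold to 41.2-fold. Members with a TKO range over 1 numbered 1 under normexp (alternative chosen after seeing the data).

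Centring on the median called 3876 genes higher in place of 6413 and moved the median over all genes to -0.20, and testing without a filter moved it to 0.14. The median of the neighbours became -0.035 when centred on the median, 0.30 without a filter and 0.046 within 500 kb; centred on the median it stood 0.17 above that of non-members, as it did in the stated setting. Neighbours called lower were 13.0% without a filter and 14.9% within 50 kb, and neighbours at least 2-fold higher were 9.25% under normexp (non-members 3.23%) and 11.4% within 500 kb. Of the genes outside the members that were followed through the settings, none changed sign, and the medians above did. Apoa2, Apoc2, Lrp2, Rbp4, Hdhd1a and the Tet genes were not followed in this way. In the lists, counts of calls moved by over 1.5 times in 22 cases, mostly lists of few genes.

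Same-numbered WT and TKO arrays did not deviate together (r = -0.069, -0.024 and 0.0065), and the stated setting paired no arrays. Shared handling of same-numbered dishes was not tested. With the replicate block 5857 genes were called higher and 5790 lower, and 42.7% of neighbours were called higher. Signals near background limit the members: 3 arrays a group and 1 spot a probe give no error for WT levels.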
